A study of Mus musculus with 8 samples.

Results

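Natural killer (NK) cells were followed here through the tongue epithelium of mice in which cancer-related transgenes had been switched on in the epithelial cells around them. A cell counted as a member if it held 1000 to 5500 genes, at most 30000 molecules counted by unique molecular identifier (UMI), at most 7% mitochondrial UMIs, and under 0.5% of its UMIs in the keratin genes Krt5, Krt14, Krt15, Krt13 and Krt6a. It also had to hold a UMI of at least 2 of the 5 NK markers Ncr1, Klrb1c, Klre1, Eomes and Klra8, and at most 1 UMI of Cd3e, Cd3d and Cd3g together, which encode the T cell receptor's CD3 chains. The rule found 372 cells, of 25199 within the limits on genes and UMIs and 42550 in all. These markers and the Cd3 and keratin genes chose the members, so their levels are a description and not a result: the cells were chosen by these measured values.

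The cells were sorted for viability from tongue epithelium 15 days after induction, and 3' single-cell libraries were made, 8 in all, with 2 per genotype and 4 genotypes. All mice carried Krt14-CreERT and LSL-rtTA, and according to the study's methods a tetON_H2B-GFP reporter, and received tamoxifen in the tongue and doxycycline in the diet as young adult littermates. Control mice (N) had no further transgene. E mice added tetON_E6-E7, the oncogenes of a human papillomavirus, Y mice added tetON_YAP1S127A, a form of the transcriptional coactivator YAP1 that resists inhibition by the Hippo pathway, and EY mice had both. The Krt14 promoter is active in basal epithelial cells, so the transgenes were aimed at the epithelium and not at NK cells. Libraries are named by genotype and number (N1, N2 and so on), and the title of N2 has more than 1 animal number, so that it may pool animals. P-values therefore measure the spread between these libraries, few as they are.

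NK cells are innate lymphocytes that kill infected or transformed cells without a rearranged antigen receptor. They release perforin and granzymes from granules and secrete interferon-gamma and chemokines, and the balance of activating and inhibitory receptors on their surface sets whether they fire. In barrier tissues, NK cells recruited from the blood are found beside tissue-resident type 1 innate lymphoid cells (ILC1), which share Ncr1 and Klrb1c and usually lack Eomes.

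The members were spread unevenly. N1 held 14, N2 152, E1 38, E2 70, Y1 58, Y2 19, EY1 20 and EY2 only 1, so N2 alone gave more members than any other pair of libraries together. The single EY2 cell held 1138 UMIs per 1000000 (CPM) of the NK genes outside the rule, against 8564 to 10806 CPM in the other libraries, and EY2 was left out of every gene test below. NK UMIs per library ran from 62592 in N1 to 1102516 in N2 among the other 7, and median UMIs per NK cell from 3587.5 in N1 to 9957.5 in E2. Whole libraries held 46483469 to 102427359 UMIs. Of 42314 distinct cell barcodes, 235 (0.555%) occurred in more than 1 library, 6 members had such a barcode, and none was shared between the NK cells of different libraries.

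Some members carried many UMIs of other cell types. In N1, 589 of the 594 UMIs of the antigen presentation genes H2-Aa, H2-Ab1 and Cd74 lay in 1 cell, and in N2 3866 of 3989 lay in 5 cells. In EY1, 1244 of 1471 UMIs of the neutrophil genes S100a8 and S100a9 lay in 1 cell, yet all 20 members held at least 1, with a median of 12.5 per cell. Globin UMIs lay mostly in 1 cell of N2 (6040 of 6307) and 1 of EY1 (1131 of 1185). Over the whole lists, summed neutrophil markers reached 10792 CPM in EY1 and at most 405 CPM in the other 6 libraries tested. Dendritic and Langerhans cell markers reached 9778 CPM in N1 and 3783 CPM in N2 and 149 to 959 CPM elsewhere. No doublet caller was run. Leaving out the 12 members with 20 or more UMIs of any of these 3 gene groups gave an alternative, chosen after seeing the data, that is quoted where it matters.

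Among the genes that chose the members, and so with no bearing on the label, Ncr1, the activating receptor NKp46, was found in 333 of the 372 members (89.5%), Klrb1c in 304 (81.7%), Klre1 in 235 (63.2%), Eomes, a transcription factor of NK cells, in 140 (37.6%), and Klra8 in 70 (18.8%). By library, and without regard to depth, Eomes was found in 21.4% (N1), 34.9% (N2), 15.8% (E1) and 44.3% (E2) of members without YAP. With YAP it was found in 46.6% (Y1), 47.4% (Y2) and 55% (EY1), and not in the 1 cell of EY2. Klra8 was found in no member of N1 or E1. Just over the rule's limit lay 171 members with 2 markers, while 99 had 3, 67 had 4 and 35 had all 5. Just outside it were 316 cells with 1 marker, whose median of 9682.5 UMIs was above the 5743 of the members with 2, and 197 cells with at least 2 markers and more than 1 Cd3 UMI. Within it, 36 members held 1 Cd3 UMI.

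To check the label on genes the rule did not use, cells were thinned to 2000 UMIs each so that shares could be compared across depths. No NK cell fell below that depth. CD8 T cells (Cd3 UMIs of 2 or more, a Cd8a UMI, no Cd4 UMI, fewer than 2 NK markers) and epithelial cells with at least 2% keratin UMIs served as references, and shares are given in that order. Tyrobp, the DAP12 signalling adaptor, was found in 91.4% of NK cells, 4.59% of CD8 T cells and 0.9% of epithelial cells. Fcer1g, the other common adaptor of NK receptors, was found in 80.6, 5.83 and 0.829%. Xcl1, a chemokine that attracts cross-presenting dendritic cells, was found in 64.8, 6.24 and 0.129%, and Klra4, an Ly49 receptor, in 26.6, 0.0374 and 0.3%. These shares stood far above the background that free RNA left in the epithelial cells. Klra4 may share reads with its near-identical copy Klra8, a gene of the rule, so its share is no independent check. Xcl1 and Klra4 were not on the preset list of 12 NK genes outside the rule. That list summed to 8564 to 10806 CPM in the NK cells of the 7 libraries other than EY2. In their CD8 T cells it summed to 1278 to 3762 CPM. Ptprc, the pan-leukocyte marker CD45, had a UMI in 96.6 to 100% of the members of each library before thinning.

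Markers of neighbouring lymphocytes were mixed. Trac, the constant part of the T cell receptor alpha chain, was found in 3.76% of NK cells against 68.7% of CD8 T cells, and Cd5 and Cd6 were found in none after thinning. Trbc1, from the beta chain locus, was nevertheless found in 53.5% of NK cells and 47.3% of CD8 T cells, and Cd28 in 23.7 and 41.8%. Itga1 (CD49a), often used for tissue residency, was found in 13.7% of NK cells and Itga2 (CD49b), typical of circulating NK cells, in 7.53%. The rule does not separate NK cells from ILC1. Their mix may differ between libraries, and its part in the gene levels below was not tested.

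The first comparison was of how many NK cells each library held. Among keratin-low cells, meaning cells within the limits and under the keratin limit, the NK share was 1.96% (N1), 10.7% (N2), 4.85% (E1) and 7.34% (E2). Under the YAP transgene it was 1.45% (Y1), 1.52% (Y2), 1.23% (EY1) and 0.0989% (EY2). Each YAP library was under the lowest of the 4 without it, although N1 came close to them: its 95% exact Clopper-Pearson interval, 1.07 to 3.26%, held the values of Y1, Y2 and EY1. Such intervals cover counting error only. The mean was 1.07% ± 0.662 (SD, n = 4) with YAP and 6.22% ± 3.72 without, a difference of -5.14 points. A two-sided exact permutation test gave p = 0.0286, which is the smallest that 4 against 4 libraries allow. Adjusted over the 4 share results, p was 0.114. The smallest p possible here becomes 0.114 when it stands alone among 4 results. This difference could thus not have passed by itself, and the adjusted value does not decide whether the shares differ.

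As a share of NK plus T cells, which leaves out the myeloid cells that fill the denominator above, the values were 3.06% (N1), 18.1% (N2), 12% (E1) and 10.5% (E2) without YAP. With YAP they were 2.75% (Y1), 2.86% (Y2), 6.25% (EY1) and 0.402% (EY2). EY1 now lay above N1, so the groups overlapped, and 3 of 4 libraries with YAP were below all 4 without. The difference of -7.86 points had an exact permutation p of 0.0571 (adjusted p = 0.114). For E6-E7 the differences were -0.532 points of keratin-low cells (exact permutation p = 0.771, adjusted p = 0.914) and 0.600 points of NK plus T cells (p = 0.914 by the same exact test), and both changed sign with single libraries left out, the first to 1.74 points without N2 and the second to -0.977 points without E1. Requiring 3 markers and no Cd3 UMI brought the YAP difference among keratin-low cells to -2.21 points (exact permutation p = 0.114). Shares are of cells recovered, so a loss of NK cells and a gain of other cells cannot be told apart.

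**Figure D1:**
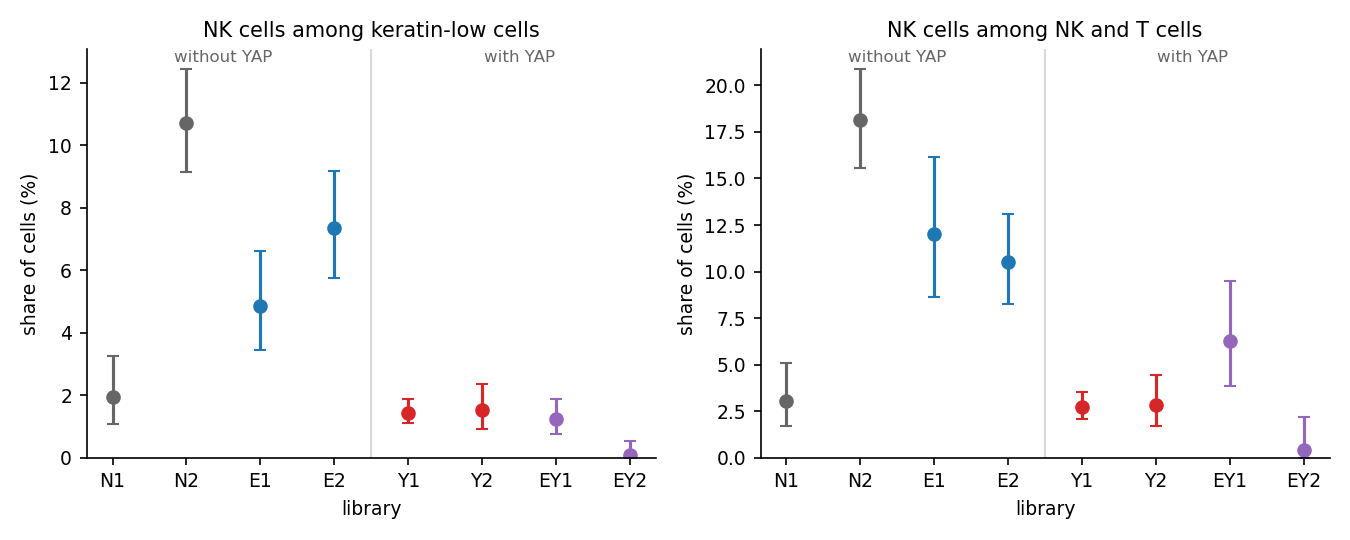
NK cells as a share of keratin-low cells (left) and of NK plus T cells (right) in percent for each of the 8 libraries, with bars for 95% exact binomial intervals. On the left the libraries with the YAP transgene sit at 0.0989 to 1.52% and those without at 1.96 to 10.7%, and on the right EY1 (6.25%) lies above N1 (3.06%).

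For gene levels, UMIs were summed over the NK cells of each of the 7 libraries with at least 10 of them, and the effect of each transgene was fitted in one additive model with edgeR's quasi-likelihood test, using the 4 libraries without YAP against Y1, Y2 and EY1. Levels are given as CPM of the library's NK UMIs in the order N1, N2, E1, E2, then Y1, Y2, EY1. In such sums, fewer cells with a transcript and less of it per cell cannot be told apart. Of 2618 genes tested, 2 (0.0764%) passed an adjusted p of 0.05 for YAP, both lower, and 351 (13.4%) had an unadjusted p under 0.05. The count of calls ran from 0 without N1 to 28 without Y2. In each list, genes named beyond the 4 most abundant and those called were picked after their values were seen.

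S100a4, a calcium-binding protein linked to cell motility and abundant in activated and memory lymphocytes, fell. The gene lies on chromosome 3 (GRCm38, 3:90603771-90606045, plus strand). It stood at 2817, 1670, 1978 and 1597 CPM without the YAP transgene and at 638, 567 and 396 CPM with it. Every library with YAP was far below the lowest without it. The log2 fold change was -1.99 (SE 0.24, edgeR adjusted p = 0.0187). After thinning, S100a4 was found in 57.2 to 78.6% of NK cells in the libraries without YAP and in 25.0 to 48.3% with YAP. Less transcript per cell also lowers such a share, so it does not show that fewer cells held S100a4. The adjusted p was 0.0745 without N1, 0.0717 without Y1 and 0.0568 when libraries with at least 20 NK cells were used, while the fold stayed between -2.19 and -1.79 over all alternatives.

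Zfp36 encodes tristetraprolin, an RNA-binding protein that speeds the decay of cytokine transcripts and is itself induced within minutes of stimulation. It lies at 7:28376784-28380253 (minus strand). Its levels were 407, 479, 352 and 430 CPM without YAP and 176, 165 and 139 CPM with it, with no overlap between the groups. The log2 fold change was -1.43 (SE 0.21, edgeR adjusted p = 0.0463). This call was close to the limit: it was lost in 9 of 15 alternatives, where the adjusted p was 0.189 without Y1 and between 0.0620 (EY1 left out) and 0.0836 (E1 left out) when N1, N2, E1, E2 or EY1 was dropped. The fold changed little, from -1.60 to -1.28.

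The list of 15 immediate early and stress genes, to which Zfp36 belongs, held 1 gene called lower and none called higher, and 14 of the 15 log2 fold changes were below 0. Their median was -0.86, where the median of all genes tested was 0.00. At an unadjusted p under 0.05, 7 of 15 were lower, where 6.8% of all genes were, and none was higher, where 6.61% were. Fos, at 12:85473890-85477273 (plus strand), the AP-1 subunit, stood at 876, 799, 515 and 538 CPM against 335, 384 and 242 CPM. Its groups did not overlap, which 6.26% of genes showed in this direction, but its fold of -1.18 (SE 0.20) had an edgeR adjusted p of 0.0567. Nr4a1, a nuclear receptor induced by receptor signalling, went from 364 to 558 CPM without YAP to 228 to 247 CPM with it (-0.92, adjusted p = 0.122). Among the most abundant of the list, Junb had a fold of -0.64 (adjusted p = 0.293), Nfkbia -0.33, Ier2 -0.26 and Jund -0.19, and the libraries of all 4 overlapped. Jun was the one gene above 0, at 391 to 1117 CPM with YAP and 235 to 788 CPM without. Fos was also found in 67.9% of thinned epithelial cells and Zfp36 in 27.2%, and the part of free epithelial RNA in either level was not tested.

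**Figure D2:**
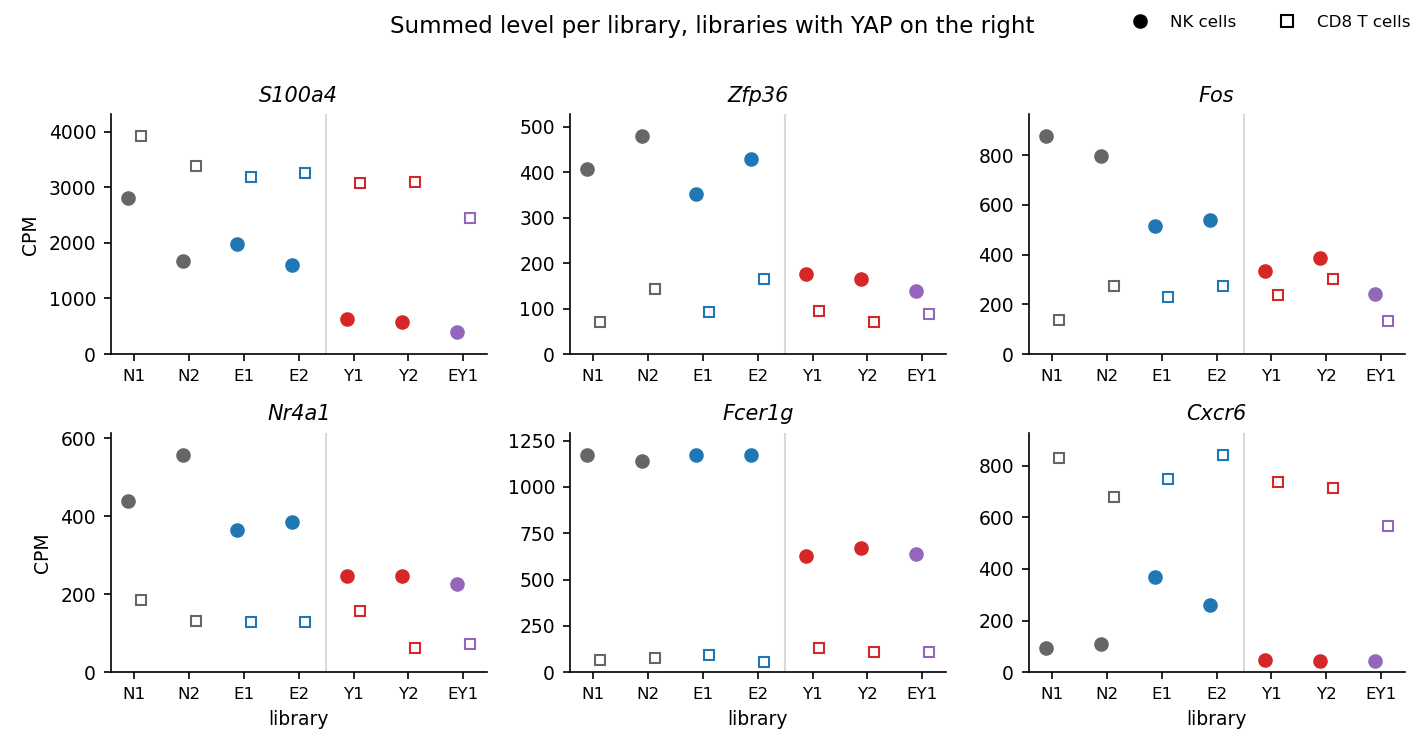
Levels of S100a4, Zfp36, Fos, Nr4a1, Fcer1g and Cxcr6 in CPM by library, in NK cells and in CD8 T cells of the same libraries. Libraries without the YAP transgene are to the left of the grey line. Only S100a4 and Zfp36 passed for YAP in NK cells. In NK cells S100a4 stands at 1597 to 2817 CPM without YAP and at 396 to 638 CPM with it, and Zfp36 at 352 to 479 and 139 to 176 CPM.

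Granule genes, the killing machinery, did not pass the test in either direction. Of 12 on the list 10 were tested, with 5 folds above 0 and 5 below and a median of 0.05, and at an unadjusted p under 0.05 3 were higher and 1 lower, where 6.61 and 6.8% of all genes were. Gzma, the most abundant granzyme, stood at 2707, 3612, 1833 and 2826 CPM without YAP and 3957, 3761 and 4684 CPM with it. Its groups did not overlap, as in 5.92% of genes tested in this direction, and the fold was 0.58 (SE 0.22, edgeR adjusted p = 0.301). Gzmb overlapped, at 282 to 606 and 293 to 1329 CPM (1.10, edgeR adjusted p = 0.206). Of its UMIs, 195 of 304 in Y1 and 66 of 181 in EY1 lay in 1 cell each. Prf1, perforin, had 498 to 571 CPM against 250 to 668 CPM (-0.43). Nkg7, a granule membrane protein needed for degranulation, stood at 2091 to 2691 CPM without YAP and 1160 to 1830 CPM with it (-0.80, adjusted p = 0.174). Srgn and Ctsw had folds of 0.30 and -0.42. Gzmb and Gzmc are close paralogs, and reads shared between them may be uncertain.

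Cytokines and death ligands gave 10 genes tested and none called, 6 with a fold below 0, a median of -0.33 and 3 lower at an unadjusted p under 0.05, where 6.8% of all genes were. Xcl1 stood at 1064 and 1229 CPM in N, 2907 and 3218 CPM in E, 744 and 714 CPM in Y and 507 CPM in EY1. In E2, 902 of its 2643 UMIs lay in 1 cell. The libraries with YAP were below all others, but the fold of -1.36 (SE 0.37) had an edgeR adjusted p of 0.174. Tnf, which was named after its values were seen, stood at 31.3, 77.8, 81.6 and 111 CPM against 17.6, 9.15 and 7.34 CPM (-2.52, adjusted p = 0.0860), on 6, 1 and 1 UMIs in the libraries with YAP. Ccl4, also named afterwards, ranged from 703 to 910 CPM without YAP and lay at 412, 36.6 and 36.7 CPM with it (-2.29, adjusted p = 0.200). Ccl5, the most abundant chemokine, overlapped fully at 1406 to 4679 CPM and 1913 to 6247 CPM (0.69). Ltb and Ifng had folds of 0.71 and -0.50. None of these cytokine differences passed after adjustment.

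Receptors and their adaptors leaned to lower values without a call. Of 16 activating receptor and adaptor genes 12 were tested, 11 with a fold below 0 (1301 of all 2618 were) and a median of -0.39, and 3 were lower at an unadjusted p under 0.05, where 6.8% of all genes were. Fcer1g, at 1:171229572-171234365 (minus strand), was even across the libraries without YAP, at 1174, 1141, 1174 and 1174 CPM, and across those with it, at 629, 668 and 639 CPM. The groups were well apart, and the fold was -0.85 (SE 0.18, edgeR adjusted p = 0.122). Tyrobp, at 7:30413760-30417585 (plus strand), stood at 2707, 1838, 1632 and 1700 CPM against 1488, 1656 and 1388 CPM, which overlap (-0.42, adjusted p = 0.385). Klrk1, the receptor NKG2D for stress ligands on tumour cells, had 640 to 951 CPM and 499 to 769 CPM (-0.36), and Hcst, its adaptor DAP10, 266 to 588 and 385 to 549 CPM. Of 15 inhibitory receptors 10 were tested, 9 with a fold below 0, a median of -0.36, and 1 higher and 1 lower at that p. Klrc1 (NKG2A) stood at 201 to 293 CPM without YAP and 73.4 to 168 CPM with it (-1.02, adjusted p = 0.193), and its partner Klrd1 (CD94) at 446 to 984 and 250 to 805 CPM (-0.61). Klra4 ranged from 113 to 422 and 165 to 450 CPM and Klra7 from 75.3 to 325 and 115 to 210 CPM. The Klra genes are a family of near-identical copies, so their split is uncertain.

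The residency and circulation lists both had a median fold below 0, as had the receptor lists above. Of 15 residency and ILC1 genes 9 were tested, 7 with a fold below 0, a median of -0.77 and 5 lower at an unadjusted p under 0.05, where 6.8% of all genes were. Cd69, an early activation and retention marker, had 1001 to 1620 CPM against 703 to 1162 CPM (-0.50). Il7r, Tmem176a and Rgs2 had folds of -0.89, -0.93 and -0.42. Named after their values were seen, Cxcr6, the receptor for CXCL16, stood at 93.9, 109, 370 and 259 CPM against 47.0, 45.8 and 44.1 CPM (-1.77, edgeR adjusted p = 0.0911). Itga1 stood at 62.6 to 107 CPM against 8.82, 45.8 and 0 CPM (-2.52, adjusted p = 0.169). Of 12 circulating NK genes 5 were tested, all with a fold below 0, a median of -0.68 and 2 lower at that p. Ly6c2, which has a close paralog, had 232 to 407 CPM and 9.15 to 184 CPM (-1.43, adjusted p = 0.237), Irf8 532 to 751 and 497 to 577 CPM (-0.26), and Klf2 414 to 974 and 433 to 988 CPM. No gene of either list passed.

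No gene of the other lists was called. Cytokine receptors and signal genes had 11 tested, a median of -0.19, and 3 lower and 1 higher at an unadjusted p under 0.05 (6.8% and 6.61% of all genes): Il2rb, the receptor chain that gives NK cells their IL-15 signal, stood at 642 to 697 CPM and 520 to 705 CPM, and Ifngr1, Jak1 and Il2rg had folds of -0.19, 0.22 and -0.25. Transcription factors had 11 tested, a median of -0.34 and 2 higher at that p. Runx3, which with T-bet directs cytotoxic lymphocytes, was at 329, 389, 295 and 279 CPM against 700, 403 and 1013 CPM, with no overlap (1.13, SE 0.29, edgeR adjusted p = 0.169), while Ets1 and Irf1 had folds of -0.21 and -0.35 and Id2 overlapped at 422 to 951 and 448 to 714 CPM. Trafficking receptors had 9 tested, a median of -0.64, and 2 higher and 1 lower at that p, with Itgb1 at 0.56, Cxcr4 at 0.88 and Ccr2 at -0.91, and with Selplg at 360 to 513 and 353 to 492 CPM. Cycling genes had 7 tested, 6 of them above 0 (median 0.36), and glycolysis and hypoxia genes 9 tested, 8 above 0 (median 0.33) and 2 higher at that p.

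Outside the lists, and named after their values were seen, Tgfb1 and Pmepa1 had higher levels in every library with YAP than in any without, and Hopx lower ones. Of all genes tested, 5.92% showed the first pattern and 6.26% the second. Tgfb1, the immunosuppressive cytokine TGF-beta, was at 188, 218, 326 and 268 CPM without YAP and 438, 366 and 653 CPM with it (1.04, SE 0.20, edgeR adjusted p = 0.0783). Pmepa1, a known target of TGF-beta signalling, was at 110, 95.1, 94.2 and 108 CPM against 300, 137 and 338 CPM (1.44, SE 0.28, adjusted p = 0.0783). A response to TGF-beta was not tested. Hopx, a homeodomain protein of effector lymphocytes, was at 266, 206, 170 and 224 CPM against 52.9, 101 and 14.7 CPM (-2.13, SE 0.38, adjusted p = 0.0695). With the 12 members rich in other cells' UMIs left out, 7 genes were called for YAP: S100a4, Zfp36, Hopx and Pmepa1 among them, with Epb41l2, BC004004 and Ccl1. Over all members, Ccl1 had 162 UMIs in Y1, 0 in Y2 and 14 in EY1.

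To see whether these values were particular to NK cells, the YAP effect was compared with that in CD8 T cells of the same 7 libraries, in one model with the library as a block. Of 6599 genes tested 56 (0.849%) had a difference that passed, 14 (0.212%) with the higher and 42 (0.636%) with the lower fold in NK cells, and 24 (without Y1) to 89 (without Y2) passed with single libraries left out. S100a4 in CD8 T cells was at 3919, 3380, 3190 and 3257 CPM without YAP and 3079, 3088 and 2440 CPM with it, a fold of -0.31 (edgeR adjusted p = 0.308). The fold was lower in NK cells by -1.61 (SE 0.16, adjusted p = 5.28e-05), so the effect on S100a4 differed between the cell types. For Zfp36 the CD8 T cell fold was -0.54 and the difference of -0.91 did not pass (adjusted p = 0.179).

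The adaptors differed as well. In CD8 T cells Fcer1g stood at 66.7, 74.6, 95.7 and 54.6 CPM without YAP and 131, 109 and 108 CPM with it, a fold of 0.71 (adjusted p = 0.110), and the difference was -1.54 (SE 0.23, edgeR adjusted p = 0.00193). Tyrobp rose in CD8 T cells, from 7.97 to 50.6 CPM without YAP to 73.4 to 108 CPM with it (1.52, adjusted p = 0.0344), and the difference was -1.88 (SE 0.29, adjusted p = 0.00257). The adaptors remained far more abundant in NK cells in every library. Klrb1b, a C-type lectin receptor beside Klrb1c, had a difference of -2.20 (adjusted p = 0.00999), with 264 to 546 CPM in NK cells and 4.28 to 51.7 CPM in CD8 T cells. Cd160, a receptor for HVEM, stood at 165 to 235 CPM without YAP and 27.5 to 100 CPM with it in NK cells, and at 49.8 to 77.6 CPM in CD8 T cells over all 7 libraries (difference -1.81, adjusted p = 0.0110). Fcer1g and Tyrobp are also myeloid genes. Summed macrophage markers in CD8 T cells were at 24.5 to 218 CPM without YAP and 371 to 396 CPM with it, and neutrophil markers reached 2044 CPM in Y1 and 1851 CPM in EY1 but only 20.1 CPM in Y2, against at most 415 CPM without YAP. The part of other cells' RNA in these differences was not tested.

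**Figure D3:**
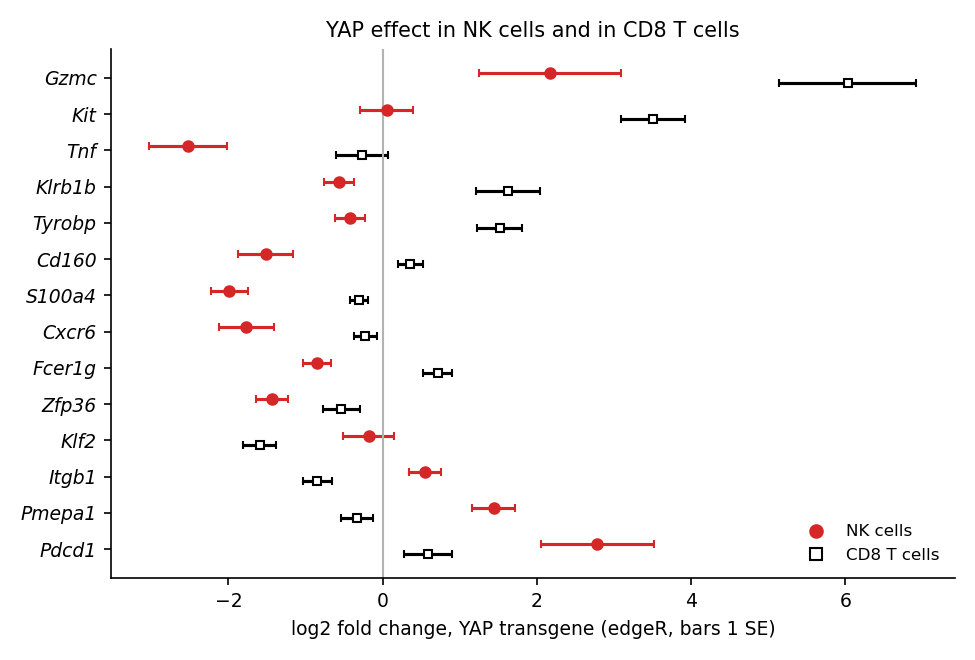
Log2 fold change for the YAP transgene in NK cells and in CD8 T cells, with bars of 1 SE, for genes of the text. S100a4 lies at -1.99 in NK cells and -0.31 in CD8 T cells, and Fcer1g at -0.85 and 0.71.

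Integrin beta-1 (Itgb1) went the opposite way in the 2 cell types. It stood at 422 to 593 CPM without YAP and 675 to 787 CPM with it in NK cells and at 381 to 500 and 189 to 316 CPM in CD8 T cells. Neither fold passed alone (0.56, adjusted p = 0.293, and -0.85, adjusted p = 0.0605, by edgeR), but the difference of 1.44 (SE 0.21) did (adjusted p = 0.00155). Klf2, a transcription factor that keeps lymphocytes circulating, fell in CD8 T cells from 364 to 588 CPM to 126 to 198 CPM (-1.59, adjusted p = 0.00818), and its levels in NK cells overlapped between the groups as given above. The difference was 1.42 (SE 0.25, adjusted p = 0.00662). Gzmc and Kit rose in CD8 T cells by 6.03 and 3.50 on the log2 scale (adjusted p = 0.0120 and 0.00410). Kit was at 45.8 to 163 CPM in the NK cells of all 7 libraries, and the differences were -3.89 for Gzmc and -3.40 for Kit. The Gzmc level of NK cells rested on few cells: in EY1 84 of 85 UMIs lay in 1.

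The second contrast was of E6-E7, with E1, E2 and EY1 against N1, N2, Y1 and Y2. Of the 2618 genes 2 (0.0764%) passed, both lower, and 126 (4.81%) had an unadjusted p under 0.05. The count ran from 0 without E1 or E2 to 24 without EY1. H2-Aa, an MHC class II chain of antigen-presenting cells at 17:34282744-34287823 (minus strand), stood at 1878 and 749 CPM in N, 6.28 and 12.2 CPM in E, 171 and 36.6 CPM in Y and 22.0 CPM in EY1. The libraries with E6-E7 lay below all others, as in 2.22% of genes, and the fold was -6.16 (SE 0.85, edgeR adjusted p = 0.0309). The place of EY1 below Y2 rests on 3 against 4 H2-Aa UMIs. H2-Eb1, at 17:34305867-34316674 (plus strand), stood at 1095 and 339 CPM in N, 12.6 and 1.22 CPM in E, 82.3 and 0 CPM in Y and 0 CPM in EY1 (adjusted p = 0.0309). All 120 H2-Aa UMIs of N1 came from 1 cell and 355 of the 819 of N2 from another, both among the cells rich in antigen presentation UMIs named above. With the 12 members rich in other cells' UMIs left out, no gene was called for E6-E7 by edgeR and 128 had an unadjusted p under 0.05. Both calls were also lost without E1 (adjusted p = 0.172 and 0.0857) and without E2 (0.231 for both), and that of H2-Aa without Y1 (0.0645). Without those members, H2-Aa and H2-Eb1 had too few UMIs to be tested.

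Interferon-stimulated genes are switched on after type I or II interferon, and none of them passed the test for E6-E7. Of 13 on the list 4 had enough UMIs to be tested, all with a fold above 0 and a median of 0.71, and 2 were higher at an unadjusted p under 0.05, against 2.64% of all genes (2.18% were lower). Isg15, a ubiquitin-like protein at 4:156199424-156200818 (minus strand), stood at 46.9 and 59.5 CPM in N, 490 and 321 CPM in E, 106 and 137 CPM in Y and 228 CPM in EY1. Every library with E6-E7 was above every one without, which 2.98% of genes showed in this direction. In EY1, however, 23 of the 31 Isg15 UMIs lay in 1 cell, and its place above Y1 and Y2 rests on that cell. The fold was 2.08 (SE 0.38, edgeR adjusted p = 0.109). Bst2 (tetherin) stood at 46.9 and 130, 264 and 223, 76.4 and 91.5, and 132 CPM in the same order (0.98, adjusted p = 0.619), again without overlap and with EY1 barely above N2. Irf7, the interferon amplifying factor, overlapped (0.44), at 163 and 67 CPM in E and 29.4 to 91.5 CPM in the libraries of N and Y. Ifi27l2a overlapped too, at 257 and 80.4 CPM in E and 36.6 to 128 CPM in N and Y. Ifit1, too low to test, was at 0 and 2.74 CPM in N, 75.3 and 43.8 CPM in E, 26.5 and 36.6 CPM in Y and 36.7 CPM in EY1.

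Outside the list, and named after their values were seen, Isg20, an exonuclease at 7:78913424-78920396 (plus strand), stood at 31.3 and 42.1 CPM in N, 163 and 118 CPM in E, 41.2 and 27.5 CPM in Y and 117 CPM in EY1 (1.69, SE 0.27, edgeR adjusted p = 0.0609). Cxcl10, the ligand of CXCR3 at 5:92346638-92348889 (minus strand), stood at 0 and 27.4 CPM in N, 816 and 453 CPM in E, 388 and 36.6 CPM in Y and 1285 CPM in EY1 (3.64, SE 0.71, adjusted p = 0.133). In EY1, 170 of the 175 Cxcl10 UMIs lay in 1 cell. The same libraries stood out in CD8 T cells, where Isg15 was at 1023 and 689 CPM in E and 100 to 189 CPM in the other 5, EY1 included at 115 CPM. Ifng itself, the NK cell's own interferon, was at 391 and 401 CPM in N, 1117 and 536 CPM in E, 235 and 329 CPM in Y and 587 CPM in EY1 (1.06, SE 0.28, adjusted p = 0.616), where 73 of its 80 UMIs lay in 1 cell. Isg15 was found in 31.1% of thinned epithelial cells against 15.6% of NK cells, and the part of free RNA was not tested.

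**Figure D4:**
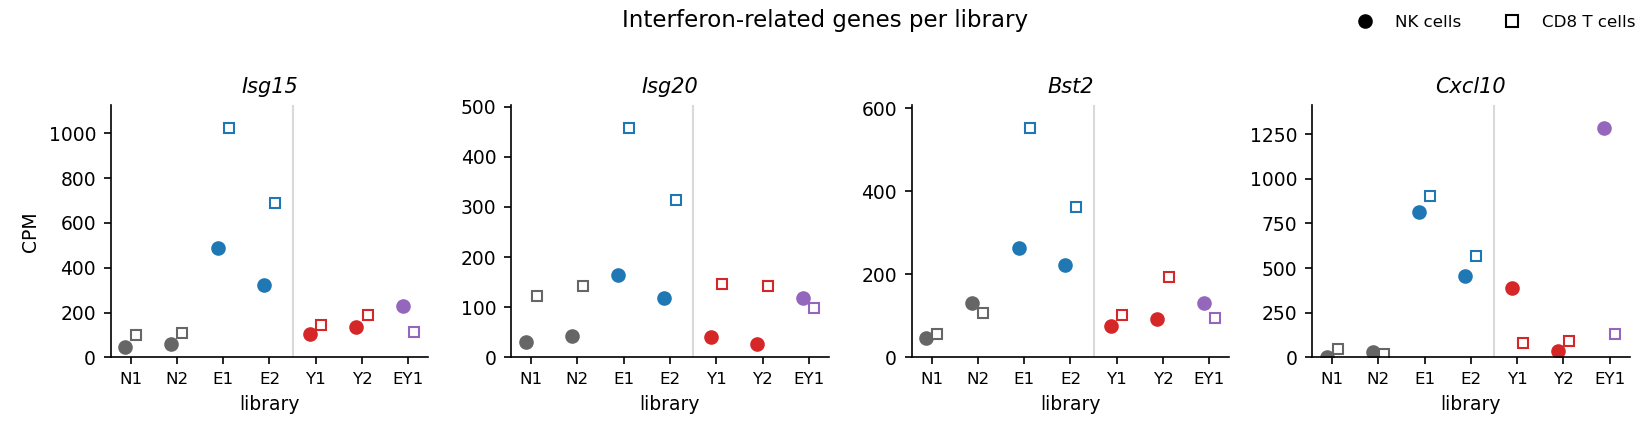
Levels of interferon-related genes in CPM by library in NK cells and in CD8 T cells. Isg15 in NK cells stands at 321 and 490 CPM in E, 228 CPM in EY1 (23 of its 31 UMIs in 1 cell) and 46.9 to 137 CPM in N and Y.

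The promoters of Isg15 and Cxcl10 are printed as examples from the interferon response, because the interferon-stimulated response element, searched on both strands as GAAA, any 2 bases and GAAA again, marks genes of this kind. Capitals mark the matches, 3 overlapping ones in Isg15 and 1 in Cxcl10. Each sequence is the 250 bases before the start site on the gene's own strand, from RefSeq on GRCm38.p6, at chr4:156200819-156201068 (minus) and chr5:92348890-92349139 (minus). The first match of Isg15 ends 68 bases before the start, and that of Cxcl10 203 bases before it.
Isg15: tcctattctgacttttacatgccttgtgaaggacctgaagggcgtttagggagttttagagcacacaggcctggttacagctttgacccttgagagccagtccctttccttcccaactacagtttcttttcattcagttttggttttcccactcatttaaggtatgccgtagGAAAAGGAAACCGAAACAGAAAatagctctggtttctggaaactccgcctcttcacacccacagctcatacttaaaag
Cxcl10: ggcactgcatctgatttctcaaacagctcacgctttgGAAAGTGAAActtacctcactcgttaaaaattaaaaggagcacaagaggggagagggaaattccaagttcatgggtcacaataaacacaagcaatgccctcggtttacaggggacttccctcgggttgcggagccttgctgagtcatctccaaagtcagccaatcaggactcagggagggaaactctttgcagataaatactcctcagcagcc
Among the 13 interferon-stimulated genes of the list, 9 had a window and 6 of those (Bst2, Ifit1, Ifit3, Isg15, Rsad2 and Stat2) held the element, as did 2.98% of all 32851 windows. None of the 13 immediate early genes with a window held it. The cAMP response core TGACG was in 7 of those 13 (Dusp1, Fos, Fosb, Junb, Nr4a1, Nr4a2 and Nr4a3) and in 17.8% of all windows. The CArG box, the other element searched (CC, a run of A or T, then GG), was in 1 of those 13 (Zfp36) and in 1.47% of all windows. A gene counted if any of its windows matched, while the percentages are of single windows. A match describes letters in a window and not a bound site.

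NK cells were last set against CD8 T cells over all 7 libraries, as a description, since the rule chose NK cells by their markers and by the lack of Cd3 and genes that travel with either were bound to differ. Leaving aside the genes of the rule and Cd8a and Cd4, 1135 of 6599 genes (17.2%) were called by edgeR, 577 higher (8.74%) and 558 lower (8.46%) in NK cells, against 740 in all without N2. Of 15 immediate early genes 12 were higher and none was lower, with log2 differences of 1.47 for Nr4a1, 1.40 for Zfp36, 1.48 for Jun and 1.06 for Fos. Of 13 inhibitory receptors 6 were higher and 6 lower. The Ly49 gene Klra4 was at 113 to 450 CPM in NK cells and at most 0.834 CPM in CD8 T cells, and the checkpoints Havcr2, Pdcd1, Ctla4 and Lag3 differed by -3.60, -3.18, -2.72 and -2.65. Ly49 receptors bind MHC class I molecules, and those checkpoints are typical of chronically stimulated T cells.

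Effectors were divided between the cell types. Xcl1 was higher in NK cells by 3.56 (507 to 3218 CPM against 60.1 to 221 CPM), Gzma by 2.64 and Prf1 by 1.33, while Gzmb differed by -0.61, Ccl5 by -0.97 and Gzmk by -3.50, and Ifng by -0.03. Interferon-stimulated genes gave 6 lower and none higher of 12 tested, cycling genes 8 lower and none higher of 13, with Mki67 at -1.24, and glycolysis and hypoxia genes 7 lower and 1 higher of 12, with Hif1a at -1.47 and Gapdh at -0.95. Il2rb was higher by 1.33 and Irf8 by 2.91, and Cxcr6 differed by -2.61 and S100a4 by -1.51.

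**Figure D5:**
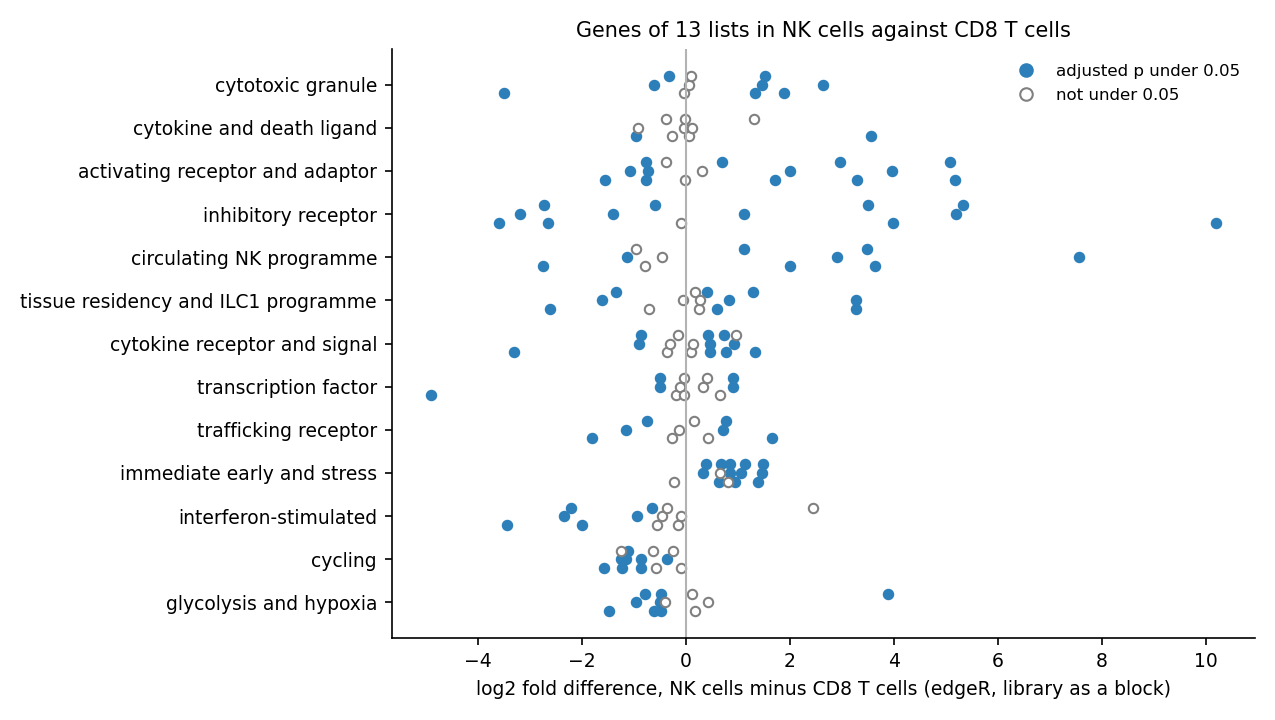
Log2 difference of NK cells minus CD8 T cells for the genes of the 13 lists, 1 point per gene. Immediate early genes lie mostly above 0 (12 of 15 called higher) and cycling genes mostly below (8 of 13 called lower).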

How the data were processed

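Tongue epithelial cells of 8 mouse libraries were sorted for viability and profiled by 10x 3' sequencing. The labels name the version 2 kit and the study's methods version 3.1. The deposited matrices hold UMI counts per gene and cell barcode, which the authors made with Cell Ranger 5.0.0 on mm10, with no scaling. Depth is given in the report and limits low genes. Replicates were numbered in accession order and pair nothing across genotypes.

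The members and gene lists were chosen with earlier results of these data known. Library shares were tested by exact permutation, two-sided, with 4 libraries against 4 (70 labellings) and Benjamini-Hochberg adjustment over 4 results. For genes, the UMIs of a cell type were added up within each library holding at least 10 such cells, and edgeR 4.0.16 in R 4.3.3 was applied (filterByExpr, TMM factors 0.923 to 1.06, quasi-likelihood test, Benjamini-Hochberg adjustment over all genes tested), with terms for YAP and E6-E7. Comparisons with CD8 T cells had the library as a block. CPM uses the TMM-scaled total for gene levels and the plain total for marker sums. Standard errors are the absolute log2 fold divided by the square root of F. The 13 genes of the rule were kept out of all counts of calls, with Cd8a and Cd4. After the main fit, the method was run on simulated counts with 200 genes changed. These counts had each gene's mean level and the spread that the fit's trend gives to genes of like abundance. The spread of single genes around that trend was left out, so recovery in the real counts may be lower. At a 2-fold change 42.5% (YAP) and 37.5% (E6-E7) of the changed genes were recovered, and at 4-fold 94% and 93.5%. Each run had 3 to 10 false calls.

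Named genes were, in each list, those called (up to 6), otherwise the 4 with the highest mean CPM, and outside the lists up to 6 rises and 6 falls per effect among called genes with at least 100 CPM in 1 arm and no overlap. Gene positions are from GENCODE on GRCm38, which held 99.8% of the gene identifiers. Alternatives were RLE scaling, no filter on low counts, DESeq2 1.42.0, other cell minima, stricter membership, a mean per group and each library left out. Python 3.11.15, pandas 2.3.3, numpy 2.4.6, scipy 1.17.1 and matplotlib 3.10.9 were used. Some results on single genes are not reported here.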

Additional observations from a re-analysis of the deposited data

Results flagged for a closer look

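Between NK cells and CD8 T cells, the effect of the YAP transgene differed for 56 of 6599 genes by edgeR's test of the difference itself. S100a4 (-1.61), Fcer1g (-1.54) and Tyrobp (-1.88) had the lower log2 fold change in NK cells, as did Klrb1b (-2.20), Cd160 (-1.81), Tnf (-2.46), Cxcr6 (-1.58), Gzmc (-3.89) and Kit (-3.40). Klf2 (1.42), Itgb1 (1.44), Pmepa1 (1.74) and Pdcd1 (2.31) had the higher one. S100a4, Fcer1g, Tyrobp, Itgb1, Klf2, Gzmc and Kit passed in each of 14 alternatives, Cd160 in 12, Klrb1b, Pdcd1 and Pmepa1 in 11, and Tnf and Cxcr6 in 10.

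Of the genes named above, only S100a4 was itself called for YAP in NK cells. In CD8 T cells Tyrobp, Gzmc and Kit were called higher with YAP and Klf2 lower. Klrb1b had folds of -0.57 in NK cells and 1.63 in CD8 T cells, neither of them called. In NK cells the fold of Gzmc was 2.17 and that of Kit 0.05, also not called. For Pdcd1 the difference rested on few NK cells: 26 of the 29 UMIs in Y1 and all 14 in EY1 lay in 1 cell each. Tnf had 6, 1 and 1 UMIs in the NK cells of Y1, Y2 and EY1. The 56 also held the myeloid genes Lyz2, Csf1r, Cybb, Cst3, Cd74, H2-Aa and H2-Eb1, beside the uneven UMIs of antigen-presenting cells described in the report, and the part of such cells was not tested.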

How the results depend on the processing

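Leaving out each library in turn moved the YAP difference in the share of keratin-low cells between -6.56 and -3.64 points and that of NK plus T cells between -10.5 and -5.47 points, always below 0. The E6-E7 difference ranged from -1.85 to 1.74 points of keratin-low cells, above 0 without N2 (1.74), EY1 (0.185) or EY2 (0.561). That of NK plus T cells ranged from -0.977 to 4.41 points, below 0 without N1 (-0.612), E1, E2 (-0.472), Y1 (-0.716) or Y2 (-0.680), and was -0.920 points with at least 3 markers and no Cd3 UMI and -0.567 points with cells thinned to 2000 UMIs.

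Counts of genes called depended on the setting. For YAP, in place of 2, there were 130 with no filter on low counts, 24 by DESeq2, 0 with at least 20 cells (edgeR, 524 at an unadjusted p under 0.05), 13 with EY2 included, 27 with a mean per group, 1 with cells holding other types' UMIs left out and 7 in the alternative added after seeing the data, and 0 (without N1; edgeR, 348 unadjusted) to 28 (without Y2; 20 without EY1) with single libraries left out. For E6-E7, in place of 2, there were 83, 7, 4 and 17 under the first 3 settings and a mean per group, 0 under both that leave out cells (edgeR, 115 and 128 unadjusted), and 0 (without E1 or E2; edgeR, 172 unadjusted without E1) to 24 (without EY1). The difference between cell types gave 165, 18 and 86 in place of 56 under the first 3 settings and 136 with EY2 included, and 24 (without Y1) to 89 (without Y2; 29 without N2). Under both settings that leave out cells, that difference gave 40 and 70, with 36 and 46 of the 56 among them. NK against CD8 T cells gave 740 without N2 to 1157 without N1, in place of 1135. The causes of these shifts were not tested. The stricter membership left too few libraries to be fitted for the additive model or the difference.

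Of 1073 refits of single genes 978 kept direction and side of the threshold, 37 lost and 58 gained a call, and none turned. The block for library was part of both comparisons with CD8 T cells. No paired analysis was possible because the titles carry animal numbers and no replicate number shared between genotypes. The libraries held 1 to 152 NK cells each, and genes low in these sums were left untested.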
